A study of Mus musculus with 21 samples.

Results

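The genes described here encode antimicrobial peptides and alarmins of the mouse. They are the beta-defensins Defb1, Defb3, Defb6, Defb8 and Defb14, the cathelicidin Camp, the lipocalin Lcn2, the S100 proteins S100a8 and S100a9, and the stefin Stfa1. They were chosen by name, as the array rows whose gene name equals 1 of these 10 symbols, and all 10 were found among the 27373 gene names of the array. Defb1 had 2 probes and each other gene had 1, which makes 11 of 41174 probes.

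Male C57Bl6/J mice with a knock-out of JNK1 (KO), the stress-activated kinase encoded by Mapk8, were set beside wild type mice (WT), with RNA from skin, from liver and from epididymal fat. All mice, WT included, were fed a high-fat diet between 5 and 44 weeks of age and had an age of 45 weeks, so no group shows a normal diet. Skin is represented by 4 KO and 3 WT one-colour Agilent arrays, liver by 3 and 3, and fat by 4 and 4, although the design text of the series speaks of 4 per condition. The labels do not name the part of Mapk8 that was removed, whether each array is a separate mouse, or whether the tissues share mice. The p-values therefore measure the spread between these samples only, and contrasts across tissues treat all arrays as independent. The comparison in skin asks which of the genes differ without JNK1, and the other tissues give their levels beside it.

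Beta-defensins are small cationic peptides that epithelia secrete and that permeabilise microbial membranes, and their genes lie in clusters of near-identical copies. S100a8 and S100a9 form calprotectin, which withholds metal ions from microbes, signals as an alarmin when released, and is made by neutrophils and by keratinocytes of injured or inflamed epidermis. Lcn2 binds bacterial siderophores, Camp is the precursor of a membrane-active peptide stored in neutrophils and made by keratinocytes, and stefins inhibit cysteine proteases.

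Levels are log2 intensities minus the 75th percentile of the same array, so that 0 is that percentile, and a difference is KO minus WT on the log2 scale. A probe is well above background where the scanner software set that mark, and a gene was tested in a tissue where its probe had the mark on at least 3 arrays. Of all probes, 38.9% to 57.2% had the mark on each of the 20 arrays used, fewest on skin KO 1 (38.9%) and skin WT 1 (39.5%). For fat WT 2 the scanner file was not used, because across probes it was closer to the skin arrays (r of 0.860 to 0.912) than to the other fat arrays (0.719 to 0.760). Its column in the deposited value table correlated with fat columns at 0.953 to 0.980 and was used instead. The brightest of 5 Mapk8 probes had a lower mean in KO than in WT in each tissue, at -4.76 ± 0.53 (SD, n = 4) against -2.91 ± 1.08 (SD, n = 3) in skin, and had the mark on 0 of 4 KO and 2 of 3 WT skin arrays. WT 1, without the mark, was at -4.14, level with KO 2 at -4.17. In liver the mean was -4.12 against -1.75 and in fat -3.30 against -0.92. There the brightest probe had the mark on 1 of 3 KO arrays of liver, on 3 of 4 of fat, and on all WT arrays used. The other 4 probes had the mark on 0 KO arrays of skin and fat and on 1 of liver. Epidermal keratinocyte markers were highest in skin and hepatocyte markers in liver, whereas adipocyte markers did not separate skin from fat. The summed intensity of 19 epidermal keratinocyte markers, in units of the 75th percentile, was 2570 to 4370 in skin, 81.2 to 134 in liver and 32.6 to 48.5 in fat. Adipocyte sums were 1510 to 1740 in WT skin, 1640 to 1750 in WT fat and 65.3 to 77.1 in WT liver.

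The beta-defensin probes lie in a cluster on chromosome 8, and their sequences show how close the copies are. The Defb3 probe covers the start of the transcript and lists accessions of Defb3, Defb8 and Defb4, whereas the Defb6 and Defb8 probes lie further along and list 1 gene each. They are printed here, 5′ to 3′ as on the array with mm9 positions, because the Defb3 and Defb8 results below rest on them.
Defb3 probe (chr8:19293364-19293423, plus strand): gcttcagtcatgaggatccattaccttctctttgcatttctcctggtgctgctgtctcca
Defb8 probe (chr8:19445856-19445915, minus strand): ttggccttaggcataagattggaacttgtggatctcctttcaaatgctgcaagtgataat
Defb6 probe (chr8:19228090-19228149, plus strand): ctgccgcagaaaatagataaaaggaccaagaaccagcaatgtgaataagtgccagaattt

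The Defb3 probe was compared with the first transcribed bases of beta-defensin genes in the RefSeq promoter table (GRCm38.p6), where capitals mark bases that differ from the probe. It matched Defb3 at 46 of 47 bases, Defb8 at 44 of 46 and Defb6 at 29 of 32, and it also matched Defb46 and Defb5 at 49 of 50 and Defb7 at 44 of 48.
Defb3 (chr8:19293364-19293410, plus strand): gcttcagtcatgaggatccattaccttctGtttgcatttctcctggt
Defb8 (chr8:19447557-19447602, minus strand): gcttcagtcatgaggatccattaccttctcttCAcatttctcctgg
Defb6 (chr8:19225496-19225527, plus strand): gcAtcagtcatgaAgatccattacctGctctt
The array therefore gives for Defb3 a signal in which transcripts of near-identical copies cannot be told apart from those of Defb3. Probes of Defb5 and Defb7 themselves were well above background on 0 of 20 arrays. Defb46 and Defb4 are not among the genes with levels here, so their part in the Defb3 signal was not tested.

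In skin, the beta-defensins Defb8 and Defb3 were lower on every KO array than on every WT array, and no such difference was seen for Defb6 and Defb14. S100a8 and S100a9 were higher on every KO array than on every WT array, and Stfa1 was higher on 3 of 4 KO arrays. None of these differences passed the test: 0 of the 9 members tested in skin were called by limma at an adjusted p below 0.05, where 0.0148% of 13497 genes were. Of the 9, 3 lay higher and 2 lower in KO without overlap of the groups, beside 3.35% and 8.16% of all genes tested. The median difference was 1.27 over the 9 members and -0.10 over all genes. These are whole pieces of tissue, in which fewer cells of a type and less RNA per cell cannot be told apart.

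**Figure D1:**
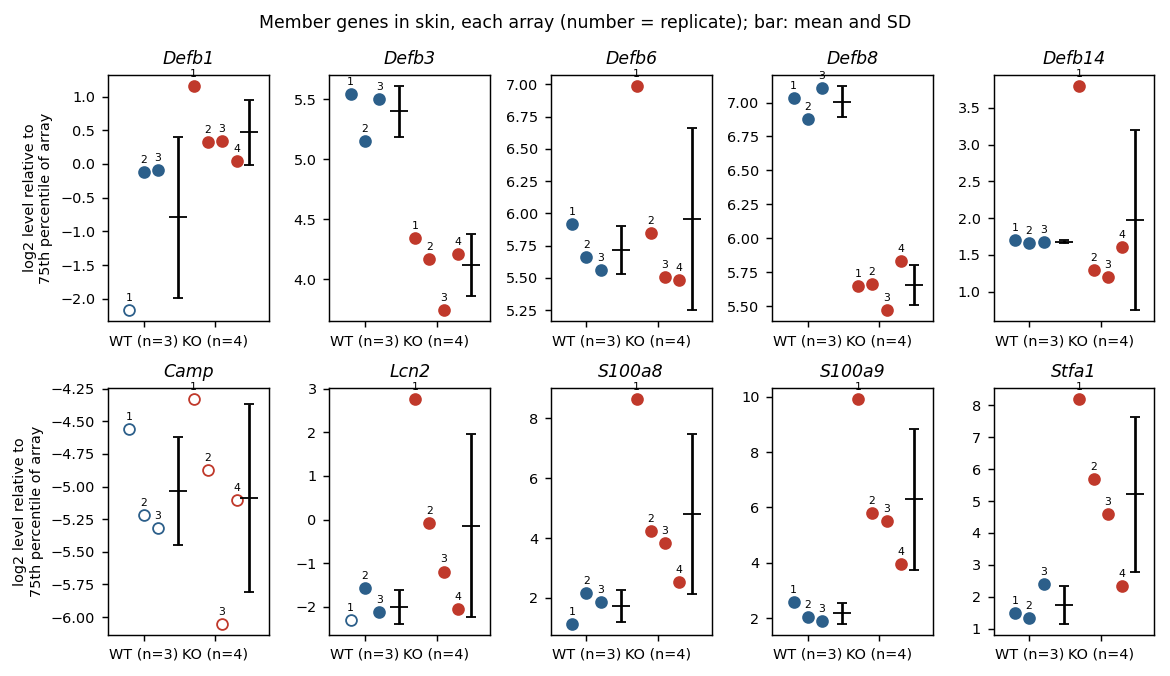
Skin level of each gene on each array, as log2 intensity minus that array's 75th percentile, with 3 WT arrays in blue and 4 KO arrays in red. Numbers are replicates, open points are not well above background, and bars give the mean and SD. Defb8 and Defb3 lie lower on all KO arrays, S100a8 and S100a9 lie higher on all KO arrays, and KO 1 is the highest array for Lcn2, S100a8, S100a9, Stfa1, Defb1, Defb6 and Defb14.

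Defb8, a beta-defensin of the same cluster as Defb3 and Defb6, was at 5.65, 5.66, 5.47 and 5.83 on KO arrays 1 to 4 and at 7.03, 6.88 and 7.11 on WT arrays 1 to 3. The 4 KO arrays thus sat under the WT range, and each group was tight, with SDs of 0.15 and 0.11. The means differed by -1.36 (SE 0.183, 95% interval -1.77 to -0.94), 2.56-fold lower in KO, with an unadjusted p of 5.73e-05 in limma, the third smallest of 13497 genes, and an adjusted p of 0.144. Background correction by normexp gave -1.47 and an adjusted p of 0.0253 in limma, the setting of 19 under which Defb8 was called.

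Defb3 was at 4.34, 4.17, 3.74 and 4.21 in KO skin and at 5.54, 5.15 and 5.50 in WT skin. Again every KO array lay below every WT array. The difference was -1.28 (SE 0.218, 95% interval -1.78 to -0.78), 2.43-fold lower in KO, with an unadjusted p of 3.02e-04 and an adjusted p of 0.144 in limma. With slide as a fixed block it was -0.73 (adjusted p = 0.717 in limma), the smallest of 19 alternatives.

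The Defb3 and Defb8 signals ran in parallel over the 7 skin arrays. Defb8 minus Defb3 was 1.31 to 1.73 on the KO arrays and 1.49 to 1.73 on the WT arrays. This difference joins 2 probes, so its constancy and not its size is informative. Pearson's r between them was 0.98 over the 7 arrays, which share the contrast of genotypes, and the Defb3 probe matches Defb8 at 44 of 46 bases as printed above.

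Defb6, a beta-defensin known from skeletal muscle and epithelia, was at 6.99, 5.85, 5.51 and 5.48 in KO skin and at 5.92, 5.66 and 5.56 in WT skin. KO 1 was high, the other 3 KO arrays lay within or beside the WT range, and the groups overlapped. The difference was 0.24 (SE 0.369, adjusted p = 0.767 in limma) and was -0.10 without KO 1. The signal of Defb8 minus that of Defb6 was therefore unequal between genotypes, at -1.34 to 0.35 on KO arrays and 1.11 to 1.55 on WT arrays, without overlap.

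Defb14, the mouse counterpart of an inducible human beta-defensin, was at 3.80, 1.29, 1.20 and 1.61 in KO skin and at 1.70, 1.66 and 1.67 in WT skin. KO 1 lay above all WT arrays and the other 3 KO arrays lay below them. The difference was 0.30 (SE 0.584, adjusted p = 0.824 in limma) and was -0.31 without KO 1.

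Defb1, a beta-defensin that epithelia make without induction, had a lower signal in skin than the other beta-defensin members. Its brighter probe was at 1.16, 0.33, 0.34 and 0.05 in KO and at -2.17, -0.12 and -0.09 in WT, where WT 1 was not well above background. The groups did not overlap, and WT 1 stood far below the other WT arrays. The difference was 1.27 (SE 0.522, adjusted p = 0.555 in limma) and 0.58 without WT 1. The other probe, on bases that largely overlap the first, gave 1.05, 0.00, 0.28 and -0.59 in KO and -1.33, -0.66 and -0.45 in WT, with groups that overlapped.

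Of 39 other beta-defensin genes listed, 23 were on the array and 0 of them passed the filter in skin. Their summed intensity was 0.673 to 1.43 in KO and 0.770 to 1.20 in WT skin, in units of the 75th percentile. Among the beta-defensins with levels here, the signal in skin was thus carried by probes of the members, within the limits of the Defb3 probe.

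The 250 bases before the transcription start of Defb3, Defb6 and Defb8 (RefSeq, GRCm38.p6) are shown as a description of how close these copies are. Capitals mark a run of 40 bases that is identical in the 3 genes and that 4 of 32851 promoters in the table hold, the fourth being Defb7.
Defb3 (chr8:19293111-19293360, plus strand): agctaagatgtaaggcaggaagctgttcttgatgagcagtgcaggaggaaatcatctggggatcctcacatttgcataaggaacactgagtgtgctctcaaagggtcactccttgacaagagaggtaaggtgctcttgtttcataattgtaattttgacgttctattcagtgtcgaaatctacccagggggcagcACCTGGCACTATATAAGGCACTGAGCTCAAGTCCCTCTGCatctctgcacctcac
Defb8 (chr8:19447607-19447856, minus strand): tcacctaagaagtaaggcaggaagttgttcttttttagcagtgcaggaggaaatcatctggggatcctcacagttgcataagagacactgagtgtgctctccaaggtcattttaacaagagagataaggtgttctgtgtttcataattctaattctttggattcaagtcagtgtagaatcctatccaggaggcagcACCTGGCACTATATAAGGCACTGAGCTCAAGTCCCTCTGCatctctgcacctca
Defb6 (chr8:19225228-19225477, plus strand): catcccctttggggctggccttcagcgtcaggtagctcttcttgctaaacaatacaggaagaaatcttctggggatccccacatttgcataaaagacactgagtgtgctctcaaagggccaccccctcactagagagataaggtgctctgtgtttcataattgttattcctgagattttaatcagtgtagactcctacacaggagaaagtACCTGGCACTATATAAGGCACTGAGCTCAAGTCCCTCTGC
The Defb3 and Defb8 promoters were 86.7% identical over their alignment, Defb3 and Defb6 74.0%, and Defb6 and Defb8 73.5%. Other pairs among the 8 members with a promoter in the table were 45.9% to 54.6% identical. The shared run lies 55 to 16 bases before the start in Defb3, 54 to 15 in Defb8 and 40 to 1 in Defb6. The part of promoter sequence in the signals of these genes was not tested. The Defb3 probe may also read Defb8 transcripts, so their parallel signals need not come from separate transcripts.

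JNK phosphorylates c-Jun, a subunit of AP-1, so the same windows were searched on both strands for the AP-1 motif TGANTCA and the related motif TGACGTCA. Neither occurs in the 8 promoters, while 6.75% and 1.55% of all 32851 promoters hold them. The letters TATAAA occur in S100a8 alone, 30 bases before the start, and in 12.4% of all promoters. A match is a description of these letters only, and no match says nothing of binding elsewhere. Promoters of Defb1 and Defb14 were not analysed here.

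S100a9, Stfa1 and S100a8 had the widest differences of the members tested in skin. The probes of S100a9 and S100a8, the subunits of calprotectin, read the following bases on chromosome 3 (mm9), printed with that of Stfa1 on chromosome 16. The Stfa1 probe also lists an accession of Cstdc5, another gene of the stefin family, so the stefin signal may be shared.
S100a9 probe (chr3:90496585-90496644, minus strand): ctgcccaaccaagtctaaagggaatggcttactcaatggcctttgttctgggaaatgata
S100a8 probe (chr3:90473778-90473837, plus strand): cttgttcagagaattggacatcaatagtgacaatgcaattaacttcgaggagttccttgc
Stfa1 probe (chr16:36285323-36285382, plus strand): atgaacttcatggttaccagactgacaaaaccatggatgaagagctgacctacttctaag

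S100a9 was at 9.92, 5.81, 5.51 and 3.94 on KO arrays 1 to 4 and at 2.59, 2.02 and 1.90 on WT arrays 1 to 3. All KO arrays lay above all WT arrays, and the KO arrays spread widely, with KO 1 far above and KO 4 nearest to WT. The difference was 4.13 (SE 1.18, 95% interval 1.42 to 6.83), 17.5-fold higher in KO, with an unadjusted p of 0.00759 and an adjusted p of 0.519 in limma. Without KO 1 it was 2.92 (adjusted p = 0.303 in limma). It was called with median scaling (4.12, adjusted p = 0.0190 in limma) and with the spread shared over 20 arrays (4.13, adjusted p = 0.0470), 2 of 19 alternatives.

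S100a8 was at 8.65, 4.22, 3.82 and 2.52 in KO skin and at 1.14, 2.17 and 1.85 in WT skin. KO 1 was again the highest and KO 4 the lowest of the KO arrays, and the groups did not overlap. The difference was 3.08 (SE 1.24, 95% interval 0.24 to 5.92), 8.46-fold higher in KO, with an adjusted p of 0.555 in limma. Without KO 1 the difference was 1.80 (adjusted p = 0.463 in limma), and without KO 1 and WT 1, the dimmest arrays, it was 1.51. S100a9 minus S100a8 was 1.27 to 1.69 on the KO arrays and 1.45, -0.15 and 0.05 on the WT arrays, so the subunits kept step over the KO arrays although their levels spanned a wide range.

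Stfa1 was at 8.20, 5.70, 4.59 and 2.35 in KO skin and at 1.49, 1.33 and 2.41 in WT skin. KO 4 lay just below WT 3, so the groups overlapped. The difference was 3.46 (SE 1.14, 95% interval 0.85 to 6.07), 11-fold higher in KO, with an adjusted p of 0.555 in limma. Without KO 1 it was 2.47. With median scaling it was 3.45 and was called (adjusted p = 0.0479 in limma).

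Lcn2, whose probe crosses an intron and spans 245 bases of chromosome 2 (chr2:32241037-32241281, minus strand, mm9), was at 2.76, -0.08, -1.19 and -2.06 in KO skin. In WT skin it was at -2.31, -1.56 and -2.11, with WT 1 not well above background. KO 4 lay within the WT range and KO 1 stood apart. The difference of 1.85 (SE 0.981) did not pass (adjusted p = 0.555 in limma) and was 0.88 without KO 1. Camp was well above background on 0 of 7 skin arrays and was not tested there.

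**Figure D2:**
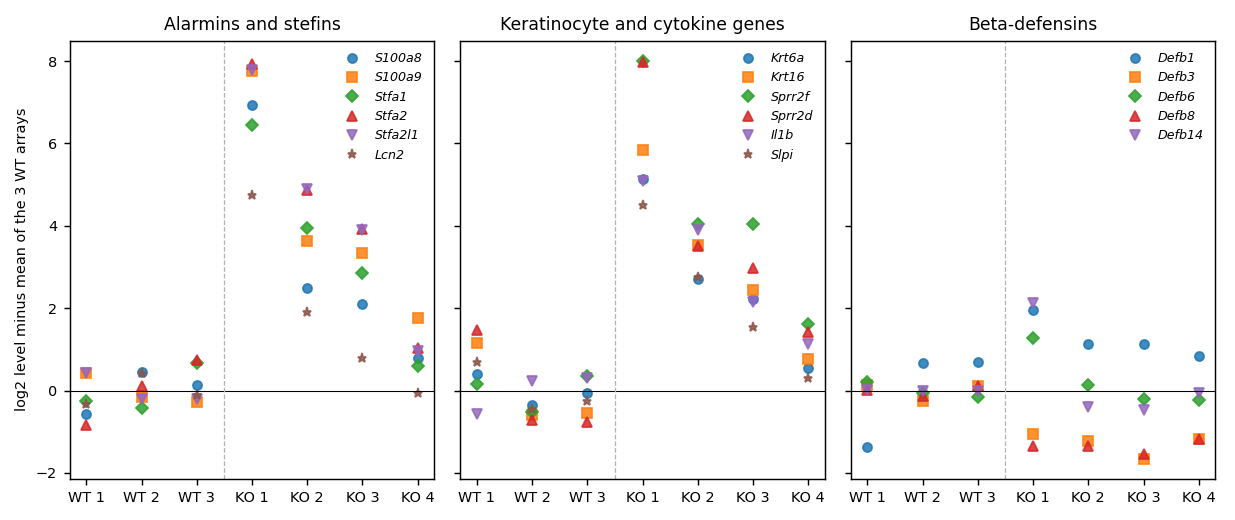
Log2 level on each skin array minus the mean of the 3 WT arrays, for the alarmins and stefins, for keratinocyte and cytokine genes, and for the beta-defensins. The first 2 panels share an order of KO arrays, highest on KO 1 and lowest on KO 4, while Defb3 and Defb8 lie between -1.66 and -1.06 on all 4 KO arrays. Stfa2l1, Sprr2f and Il1b were well above background on 0 WT arrays.

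The S100 genes, Lcn2 and Stfa1 shared an order of the 4 KO arrays, from KO 1 down to KO 4, but not of the WT arrays. Pearson's r over the 7 skin arrays was 0.97 for S100a8 with S100a9, 0.98 for S100a8 with Lcn2 and 0.96 for S100a9 with Stfa1. KO 1 was the highest array for each of these genes, and r without it was not computed. The genes whose skin pattern was most like that of S100a9 were Sprr2f (r = 0.991), Krt6a (0.989) and Col11a1 (0.985). Those for S100a8 were Rptn (0.995), Syce2 (0.991) and Csta (0.987), and those for Lcn2 were Csta (0.991), Rptn (0.989) and BC100530 (0.988). Stfa1 was most like Stfa2 (0.993), 6820445E23Rik (0.987) and Stfa2l1 (0.984). For Defb8 the nearest genes were Pfkfb4 (0.989), Ppp1r27 (0.988) and Defb3 (0.979), and for Defb3 they were H2-T23 (0.993), Pfkfb4 (0.982) and Defb8. Defb6 was nearest to Klk12 (0.988), Pitx1 (0.986) and Cstb (0.985), Defb14 to Itgae (0.991), Glt28d2 (0.989) and Ggct (0.989), and Defb1 to Nifk, Hmgn5 and Rsl1d1 (0.997 each). All these arrays share the contrast of genotypes, and r is given as a description over 7 arrays.

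Other stefins and cystatins, protease inhibitors of the same kind as Stfa1, included 9 genes tested in skin, of which 0 were called. Of these, 6 had a positive difference and 4 lay higher in KO without overlap of the groups, with a median of 1.41. Over all genes tested in skin, 39.4% had a positive difference and 3.35% lay higher without overlap. Stfa2l1 passed the filter through KO arrays alone and so had to lie higher, which leaves 3 of the 4 without overlap. Stfa2 was at 4.30, 1.24, 0.29 and -2.60 in KO and at -4.47, -3.53 and -2.90 in WT, a difference of 4.44 (SE 1.34, adjusted p = 0.555 in limma). Stfa2 was well above background on 1 of 3 WT arrays. Stfa2l1, well above background on 3 KO and 0 WT arrays, was at 2.64, -0.24, -1.25 and -4.18 in KO (adjusted p = 0.555 in limma). Its KO mean was at least 4.58-fold above WT, a bound set by the lowest signal marked as well above background. That bound leaves out the spread between arrays and is no lower limit of the effect of KO. Stfa3 differed by 2.61 and BC100530 by 1.51, and KO 1 was the highest array for each. These copies are close to each other in sequence, so the signal of 1 stefin probe may include others.

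Genes of activated keratinocytes, which the epidermis switches on in wounds and in hyperproliferation, had differences of the same sign as the alarmins. All 18 tested had a positive difference, beside 39.4% of all genes tested, and 3 lay higher without overlap, beside 3.35%. Of the 18, 0 were called, and the median was 2.42. Sprr2f and Serpinb3a passed the filter through KO arrays alone and so had to lie higher, which leaves 2 of the 3 without overlap. Sprr2f, a cornified envelope precursor, was at 3.52, -0.44, -0.45 and -2.87 in KO, with the mark on 3 KO and 0 WT arrays. Its KO mean was at least 7.44-fold above WT, a bound that leaves out the spread between arrays (adjusted p = 0.488 in limma). Sprr2d differed by 3.97, the keratin Krt16 by 3.15 and the keratin Krt6a by 2.66. Summed over 19 genes, their intensity was 2190, 712, 620 and 406 times the 75th percentile on KO arrays 1 to 4 and 660, 286 and 337 times on WT arrays 1 to 3, the same order of KO arrays as for S100a9. Their part in the result for the alarmins was not tested.

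Epidermal keratinocyte markers showed no common direction, with 9 of 19 positive, 0 called and a median of -0.09. Their sums were 2570 to 3860 in KO and 2990 to 4370 in WT. Krt2, a keratin of the upper layers, differed by -2.43 and the envelope protein gene Ivl by 1.04, and neither passed the test (adjusted p = 0.555 each in limma). Hair follicle markers had a positive difference in 21 of 22 tested genes, 19 of them without overlap and 0 called, with a median of 3.97. Of all genes tested in skin, 3.35% lay higher without overlap. Their sums were 748 to 3160 in KO and 122 to 325 in WT, and the part of the hair cycle in the results above was not tested.

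Defining neutrophil markers were mostly below background in skin. Of 17 on the array, 9 were well above background on 0 of 7 skin arrays, namely Csf3r, Elane, Prtn3, Ngp, Ltf, Mmp8, Trem1, Cd177 and Fpr1, as was Camp. Of the 7 tested, 5 were positive, 0 were called and the median was 0.96, with the largest differences for Clec4d (1.54), Padi4 (1.45) and Chi3l3 (1.20), and Retnlg, the middle gene, had the mark on 0 WT arrays. The sums over the 17 were 11.6 to 17.0 in KO and 11.5 to 13.5 in WT, of which Il1r2, with a difference of -0.46, was the brightest gene. Without it, a choice made after seeing the values, the sums were 12.9, 6.27, 7.83 and 2.91 on KO arrays 1 to 4 and 3.38, 3.21 and 3.2 on WT arrays 1 to 3. The mean log2 level of the 17 was -1.79, -2.33, -3.08 and -3.21 over KO arrays 1 to 4, the order seen for the alarmins, and -2.94, -3.19 and -3.11 in WT. The part of neutrophils in the alarmin values was not tested. Among neutrophil chemokines, Cxcl1, Cxcl2, Cxcl3 and Ccl3 were well above background on 0 skin arrays, while Ccl4 differed by 2.95 and Ccl20 by -0.17 without a call.

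Cytokines known to induce these peptides were mostly below background: of 14 on the array, Il1a, Il6, Tnf, Il17a, Il17f, Il22, Osm, Il23a and Csf3 were well above background on 0 skin arrays. All 4 that were tested had a positive difference and 0 were called. Il1b, an early inflammatory cytokine, was at 1.20, 0.01, -1.75 and -2.77 in KO and at -4.45, -3.65 and -3.58 in WT. It was well above background on 3 KO and 0 WT arrays, so it entered the test through KO alone. Its KO mean was at least 4.37-fold above WT, a bound that leaves out the spread between arrays (adjusted p = 0.483 in limma). The related epithelial interleukins differed by 1.63 (Il1f6), 1.01 (Il1f9) and 0.63 (Il1f8).

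Receptors and signalling partners of the alarmins and peptides showed no common direction, with 9 of 17 positive, 0 called and a median of 0.04. Slc22a17, a receptor for Lcn2, differed by -0.88, and Il1rap, a co-receptor of the interleukin family, by 1.06. Among 10 other antimicrobial proteins tested, 6 were positive, 0 were called and the median was 0.05. Wfdc12 differed by 2.83 without overlap and the protease inhibitor Slpi by 2.27, whereas Rnase4 differed by 0.47 and Pglyrp1 by 0.15. Of 14 other S100 and alarmin genes tested, 7 were positive and 0 were called, with a median of 0.01. S100a3, which is made in the hair cuticle, was at 8.06, 5.76, 7.49 and 5.52 in KO and 2.40, 4.19 and 2.45 in WT (difference 3.70, adjusted p = 0.144 in limma). The alarmin Il33 differed by 0.52.

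Markers of muscle, fat, vessels and macrophages in the skin samples mostly had negative differences, with 0 genes called, where 39.4% of all genes tested had a positive one. All 13 skeletal muscle markers had a negative difference (median -0.67), as did 11 of 12 adipocyte markers (median -0.60), 9 of 10 endothelial markers (median -0.63) and 7 of 9 macrophage markers (median -0.26). Muscle sums were 1740 to 4420 in KO and 4270 to 5150 in WT, and adipocyte sums were 872 to 1450 and 1510 to 1740. Sebaceous gland markers were positive in 4 of 10 (median -0.17), erythroid markers in 2 of 5 (median -0.43), genes of the acute phase in 10 of 13 (median 0.44), and hepatocyte markers in 8 of 10 (median 0.40). The part of this makeup in the lower Defb8 and Defb3 signals was not tested. Each slide held skin of 1 genotype only, with the KO arrays on 2 slides and the WT arrays on 3 others. With slide as a random block the difference of Defb8 was -1.36 (adjusted p = 0.197 in limma) and that of S100a9 was 4.13 (adjusted p = 0.599).

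**Figure D3:**
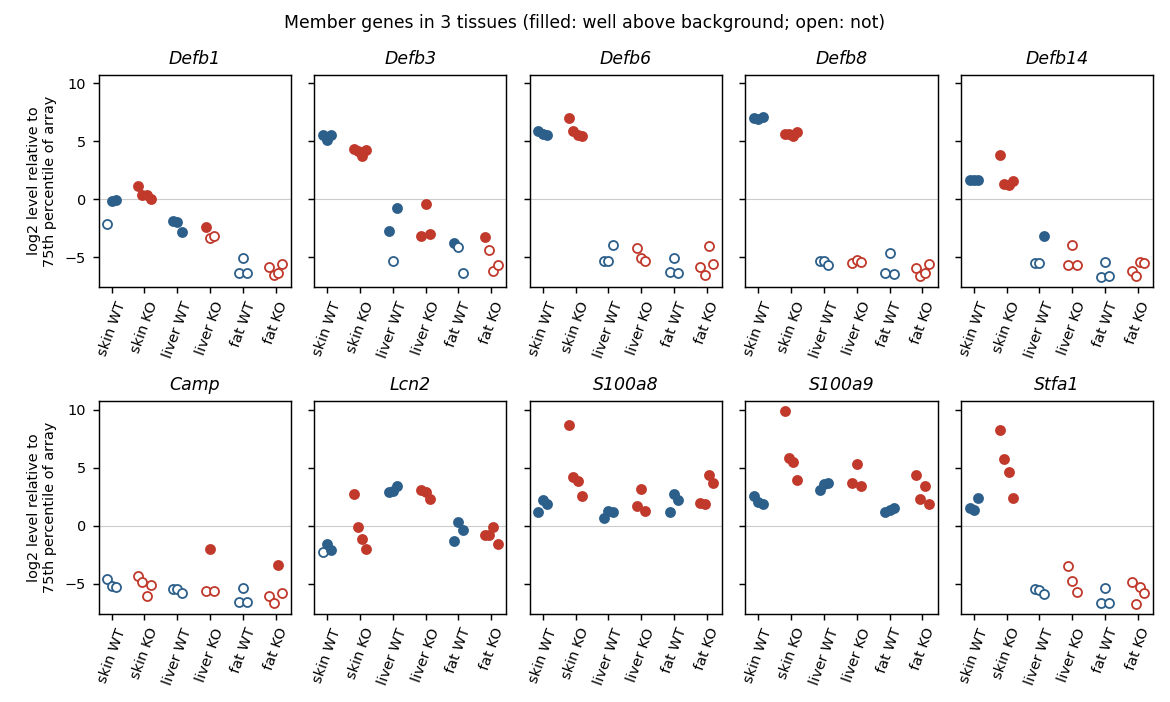
Level of each gene in skin, liver and epididymal fat, WT in blue and KO in red, as log2 intensity minus that array's 75th percentile. Filled points are well above background and open points are not, and fat WT 2 is left out. Defb3, Defb6, Defb8, Defb14 and Stfa1 are high in skin, Lcn2 in WT is highest in liver, and S100a8 and S100a9 are present in all 3 tissues.

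In WT mice the members split by tissue. Defb8, Defb6, Defb3, Defb14 and Stfa1 were far higher in skin than in liver or fat, Lcn2 was higher in liver than in skin, and S100a8 and S100a9 did not pass the test between tissues. All of Defb1, Defb3, Defb6, Defb8, Defb14 and Stfa1 were called higher in skin than in liver, where 29.7% of 14822 genes were (34.7% lower), and higher in skin than in fat, where 26.6% of 16089 genes were. In the comparison with liver, Defb1 and Defb3 passed the filter in both tissues, and Defb6, Defb8, Defb14 and Stfa1 through skin alone. In that with fat, all of them passed through skin alone. Such genes enter because they are bright in skin, so their direction was largely fixed by the filter. For them the shares of all genes are no measure to compare with. A fold against a tissue in which no WT array was well above background is a bound, set by the lowest signal marked as well above background.

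Defb8 in WT skin was at least 1410-fold higher than in WT liver and at least 2170-fold higher than in WT fat (adjusted p = 1.42e-13 and 1.31e-13 in limma). Defb6 was at least 576-fold and at least 884-fold higher (adjusted p = 6.09e-11 and 5.76e-11). In WT liver these genes were at -5.46 ± 0.19 and -4.84 ± 0.77 (SD, n = 3), and 0 of 6 liver arrays were well above background for either. Stfa1 was at least 36.8-fold higher in skin than in liver and at least 56.4-fold higher than in fat (adjusted p = 3.90e-06 and 3.57e-06).

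Defb3 was at -2.70, -5.29 and -0.75 in WT liver and differed by 8.31 (SE 0.982, adjusted p = 9.94e-07 in limma) between WT skin and WT liver, and by 10.13 (SE 0.983, adjusted p = 2.47e-07) between WT skin and WT fat, where 1 of 3 arrays was well above background and alternatives gave 7.46 to 10.75. Defb14 differed by 6.36 (SE 0.701, adjusted p = 4.17e-07 in limma) between skin and liver, where 1 of 3 WT arrays was well above background, and was at least 53.8-fold higher in skin than in fat. Defb1 was at -1.85, -1.93 and -2.81 in WT liver and differed by 1.40 (SE 0.502, adjusted p = 0.0212 in limma) from skin. That call was lost without skin WT 2 (1.07), without skin WT 3 (1.05) and without liver WT 3 (1.10), with adjusted p of 0.0992, 0.104 and 0.0979. In liver Defb1 was at least 3.67-fold higher than in fat (adjusted p = 5.50e-06 in limma), where 30.1% of 15967 genes were called higher in liver. Defb1 passed the filter there through liver arrays alone, so that direction was also largely fixed by the filter.

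Lcn2, an acute phase product of hepatocytes, was at 2.93, 3.02 and 3.43 in WT liver, at -2.31, -1.56 and -2.11 in WT skin and at -1.29, 0.29 and -0.40 on the WT fat arrays used. Every WT liver array lay above every WT array of the other tissues. Skin minus liver was -5.11 (SE 0.806, adjusted p = 2.76e-05 in limma), liver minus fat was 3.59 (SE 0.806, adjusted p = 9.38e-04), and skin minus fat was -1.52 (SE 0.807, adjusted p = 0.115). S100a8 differed by 0.69 between WT skin and liver (95% interval -1.62 to 3.0) and S100a9 by -1.25 (95% interval -3.40 to 0.89), and neither passed the test (adjusted p = 0.595 and 0.291 in limma). Between WT liver and fat S100a9 differed by 2.08 (95% interval -0.06 to 4.23, adjusted p = 0.0851 in limma). The WT values of S100a9 were 3.42 ± 0.34 in liver, 2.17 ± 0.37 in skin and 1.34 ± 0.19 in fat (SD, n = 3 each). Those of S100a8 were 1.03 ± 0.34 in liver, 1.72 ± 0.53 in skin and 2.03 ± 0.81 in fat (SD, n = 3 each).

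In liver, 5 members were tested for KO minus WT and 0 were called, as were 0.0226% of 13302 genes. S100a8, which in liver comes largely from myeloid cells, was at 1.68, 3.15 and 1.23 in KO and at 0.64, 1.29 and 1.17 in WT. KO 2 was high and the groups overlapped, with a difference of 0.99 (SE 0.481, adjusted p = 0.883 in limma). S100a9 was at 3.64, 5.31 and 3.39 in KO and at 3.04, 3.56 and 3.67 in WT, a difference of 0.69 (SE 0.496, adjusted p = 1.0 in limma). KO 2 was again the highest array, and it also had the highest sum of neutrophil markers in liver, 10.9 against 3.79 to 5.24 on the other 5 arrays.

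Lcn2 differed by -0.37 in liver (SE 0.253, adjusted p = 0.998 in limma), with KO at 3.08, 2.91 and 2.28. Defb1 was at -2.43, -3.36 and -3.16 in KO, of which 1 array was well above background, and differed by -0.78 (SE 0.342, adjusted p = 0.852 in limma). Defb3 was at -3.13, -0.43 and -2.95 in KO liver and differed by 0.74 (SE 1.20). It was highest on KO 2 and WT 3, the arrays with the highest levels of Lor, an epidermal gene singled out after its values were seen, at 5.34 and 4.79. Lor was at 3.29 on KO 1 and at -0.43 to 0.61 on the other 3 arrays, and Camp and Defb14 each were well above background on 1 liver array, KO 2 (-1.98) and WT 3 (-3.13). Without these 3 arrays, a choice made after seeing the data that leaves 1 KO and 2 WT arrays, S100a8 differed by 0.27, S100a9 by 0.09 and Lcn2 by -0.69. The part of skin-derived RNA in the liver values was not tested.

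In epididymal fat, S100a8, S100a9 and Lcn2 were tested and 0 were called, as were 0.0131% of 15246 genes in the scanner values. S100a9 was at 4.32, 2.28, 3.42 and 1.83 in KO and at 1.16, 1.32 and 1.54 on WT arrays 1, 3 and 4. All KO arrays lay above these WT arrays, as for 6.63% of genes, with a difference of 1.63 (SE 0.562, 3.09-fold, adjusted p = 0.562 in limma). In the deposited value table, which holds a fat column for WT 2, S100a9 was at 12.96, 11.01, 12.02 and 10.36 in KO and at 9.95, 9.90, 9.96 and 10.20 in WT. The 4 KO columns again lay above the 4 WT columns, as for 4.35% of genes, with a difference of 1.58 (SE 0.493, 3.0-fold, adjusted p = 0.313 in limma). Of the 15246 genes, 0.00656% were called in that table.

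**Figure D4:**
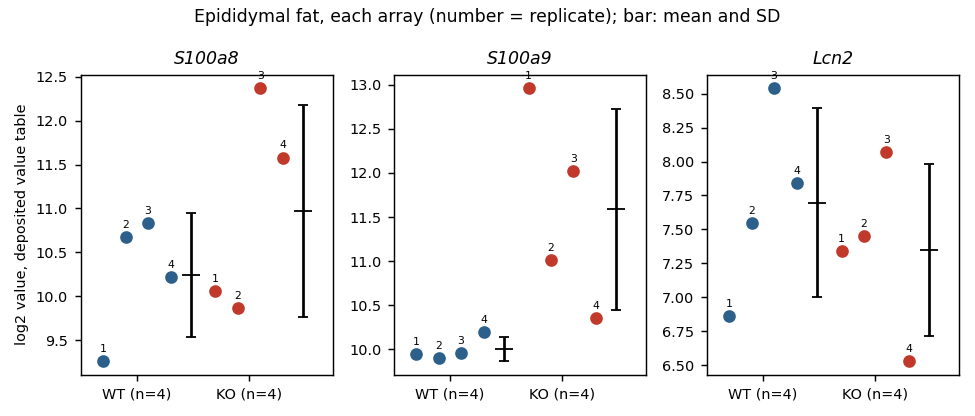
Fat values of S100a8, S100a9 and Lcn2 in the deposited value table, in log2 units, with 4 WT and 4 KO columns. Numbers are replicates and bars give the mean and SD. The S100a9 groups do not overlap, with WT between 9.90 and 10.20 and KO between 10.36 and 12.96, while those of S100a8 and Lcn2 overlap.

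S100a8 in the same table was at 10.06, 9.87, 12.37 and 11.58 in KO fat and at 9.26, 10.67, 10.83 and 10.22 in WT fat. KO 3 and KO 4 were high and the groups overlapped, with a difference of 0.73 (SE 0.595, adjusted p = 0.643 in limma). Lcn2 differed by -0.35 (SE 0.406, adjusted p = 0.740). The subunits of calprotectin did not share an order of arrays in fat, where S100a9 was highest on KO 1 and S100a8 on KO 3. On the 1 slide that held both genotypes of fat, KO 2 minus WT 4 was 0.74 for S100a9, -0.33 for S100a8 and -0.43 for Lcn2 in the scanner values.

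Blood, neutrophil and macrophage markers were read beside these values. Erythroid sums were 381 to 530 in KO fat and 279 to 288 in WT fat, so the groups did not overlap for the erythroid markers either. Neutrophil marker sums were 8.10 to 16.3 in KO and 13.1 to 41.4 in WT fat, most of it from Clec4d on all 3 WT arrays. Without Clec4d, a choice made after seeing the values, they were 3.17 to 8.74 in KO and 2.11 to 3.03 in WT. The mean log2 level of all 17 overlapped, at -3.36 to -2.75 in KO and -3.44 to -3.23 in WT. Of 11 macrophage markers tested in fat, 10 had a negative difference and 0 were called, with a median of -0.39. Over all genes tested in fat, 62.3% had a positive difference. Elane, Trem1 and Cd177 were well above background on 0 fat arrays. The part of blood cells, neutrophils and macrophages in the S100a9 values of fat was not tested. Epididymis and testis markers, which fat cut near the epididymis can hold, summed to 0.525 to 16.6 in KO and 1.69 to 98.5 in WT fat, and hepatocyte markers to 12.1 to 69.1 and 7.80 to 31.1, against 3110 to 5320 in liver. Defb6, Defb8, Defb14, Defb1 and Stfa1 were well above background on 0 of 7 fat arrays, Defb3 on 2 and Camp on 1, KO 3.

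**Figure D5:**
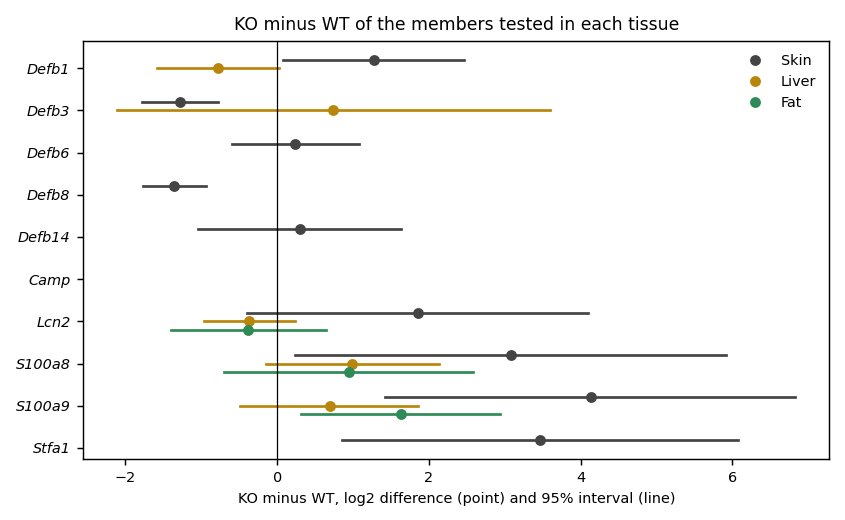
KO minus WT log2 difference, as points with 95% intervals as lines, for each gene tested in skin, liver and fat. The skin intervals of Defb8 and Defb3 lie wholly below 0 and those of S100a8, S100a9, Stfa1 and Defb1 wholly above 0, without adjustment for the number of genes, and 0 differences were called after adjustment.

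The effect of KO in skin was set against that in liver and in fat in 1 fit of 20 arrays. That fit took no account of mice that the tissues may share. For skin minus liver, 0 members were called and 0.202% of 14822 genes were. For skin minus fat, 0 members were called and 0.423% of 16089 genes were. S100a9 differed by 3.44 between skin and liver (SE 1.39, adjusted p = 0.565 in limma) and by 2.50 between skin and fat (SE 1.35, adjusted p = 0.460). Defb8 differed by -1.47 (SE 0.484, adjusted p = 0.398 in limma) and -1.07 (SE 0.469, adjusted p = 0.402), where its liver and fat values are at background. Defb1 differed by 2.05 between skin and liver (SE 0.687, adjusted p = 0.407 in limma). These contrasts share the skin arrays, so they are not independent of each other or of the comparison within skin.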

How the data were processed

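Per the file headers, the deposited scanner files hold intensity per spot, background-subtracted and detrended by Feature Extraction 10.7.3.1 of Agilent and not scaled between arrays. In R 4.3.3 (package data.table, version 1.17.8), spots of a probe were averaged, and each array's 75th percentile of log2 values was taken off. A gene with several probes is represented by its brightest on average. It was tested where that probe was well above background on at least 3 arrays. Groups were compared with limma 3.58.1 (two-sided, Benjamini-Hochberg over all genes tested, called below 0.05). KO minus WT was fitted within each tissue, and contrasts across tissues in 1 fit of 20 arrays. The labels' Cy3 cRNA came from 0.2 ug of RNA.

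The authors' deposited value table holds log2 values. Feature Extraction and limma are the tools in the submitters' processing notes, and the normalization and centring of that table are unknown. Its direction is that of the intensities, since columns correlated with their own arrays at 0.972 to 0.992, except fat WT 2 (0.779). Column medians, WT before KO in replicate order, were 5.94, 5.92, 5.92, then 5.95, 5.96, 6.00, 5.92 in skin. In liver they were 5.79, 5.80, 5.83, then 5.87, 5.84, 5.78, and in fat 5.86, 5.81, 5.83, 5.82, then 5.83, 5.91, 5.80, 5.76. Fat WT 2 was taken from that source only, in a fit of 4 against 4 within it.

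No 2 arrays were duplicates (highest r across probes 0.986). The number of arrays limits the precision, and intensities give no counts. Alternatives were normexp (offset 50), quantile and median scaling, other filters, the mean of all probes, the value table, slide or replicate number as a block, a shared spread and leaving out arrays. The scripts were tested on simulated data. Promoters were aligned pairwise with Biopython 1.88. Markers and gene lists are described by counts and medians.

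The members, the lists and the alternatives were chosen with earlier results of these data known. Named genes are the members, up to 4 genes of a list with the smallest p in skin, and for each member the 3 genes with the highest r over the skin arrays. Genes of a list that were never well above background are named as such, and Lor, Clec4d and Serpinb3a were named after their values were seen. The lists were other beta-defensins, other antimicrobial proteins, other S100 and alarmin genes, stefins and cystatins, inducers, receptors, neutrophil chemokines, and markers of neutrophils, macrophages, resting and activated keratinocytes, hair follicle, sebaceous gland, adipocytes, muscle, endothelium, hepatocytes, erythroid cells, and epididymis and testis, besides acute phase genes. Positions of probes are as in the files (mm9), with no exon annotation used here.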

Additional observations from a re-analysis of the deposited data

Results flagged for a closer look

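In a set of 40 groups of 4 arrays or columns examined for a lone extreme value, 2 had one, and chance alone gives such a value in about 5 percent of groups. Defb14 in KO skin was at 3.80 on KO 1, with the next KO array at 1.61, and Camp in KO fat was at 6.01 on KO 3 in the value table, with the next column at 4.59.

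The scanner file of fat WT 2, which enters no comparison, held signals of skin defensins above the level of the other fat WT arrays. Defb3 was at 4.36 where the highest other fat WT array was at -3.77, Defb6 at 5.56 against -5.10, and Defb8 at 5.94 against -4.64. Defb14 was at 1.27 against -5.37 and Stfa1 at 1.25 against -5.40. In the fat WT 2 column of the value table the same genes were at 5.28 (Defb3), 3.93 (Defb6), 3.57 (Defb8), 4.50 (Defb14) and 4.28 (Stfa1).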

How the results depend on the processing

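Over all alternatives, 1017 values of members kept their sign and side of the threshold, 29 turned sign, 8 became called and 3 lost a call. The skin differences of Defb8, Defb3, Defb1, S100a8, S100a9, Stfa1 and Lcn2 kept their sign in all 19 alternatives. Sign turned in skin for Defb6 (-0.10) and Defb14 (-0.31) without KO 1 (-0.10 to 0.40 and -0.31 to 0.55 over single arrays left out), and for Defb14 without KO 1 and WT 1 (-0.30). It turned in liver for Lcn2 with slide as a fixed block (0.31) and for Defb3 without KO 2 or WT 2 (-0.13 and -0.45, up to 1.82 over single arrays), and in fat for Lcn2 with the scanner file of WT 2 as deposited (0.05). S100a8 in WT skin minus fat turned without fat WT 3 (0.05, down to -0.75). For skin minus liver, Defb6 turned with normexp (-0.12), the value table (-0.06) and without skin KO 1 (-0.07) or liver WT 3 (-0.17, up to 0.61), the last turning Defb14 too (-0.07, up to 1.27). For skin minus fat, Defb6 turned with the value table (0.18), slide as a fixed block (0.00) and without fat KO 3 (0.27, down to -0.62) or WT 4 (0.01). Defb14, at 0.00 there, gave 0.19 with normexp, 0.11 with quantiles, 0.44 with the value table, 0.89 with slide as a fixed block and -0.61 to 0.26 without single arrays of skin or fat (those above 0 were 0.01, 0.12, 0.15, 0.17, 0.20, 0.23 and 0.26). Defb3 in WT liver minus fat was called with normexp (1.33), the value table (1.67), slide as a fixed block (2.20) and without liver WT 2 (3.01). The causes were not tested.

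Counts of genes called moved widely. In skin 2 genes were called, 0 higher and 2 lower, against 137 with median scaling (133 higher and 4 lower), 130 with a shared spread (114 and 16), 1 with the value table, 1 with slide as a random block, and 0 with quantiles, with no filter, with slide as a fixed block and without KO 1 and WT 1. Leaving out single arrays gave 0 to 43. With no adjustment of p, 385 genes higher and 678 lower passed 0.05 in limma. In liver 3 became 11 with normexp, 1 with no filter, 5 with the value table or slide as a fixed block, 20 with a shared spread (2 higher and 18 lower), 42 without KO 1, KO 2 and WT 3, an alternative added after seeing the data in which the lone KO array is assumed to vary like WT, and 0 to 28 without single arrays. Slide as a random block could not be estimated in liver and was not run. In fat 2 became 4 with no filter, 1 with the value table or slide as a fixed block, 54 with a shared spread (6 higher and 48 lower), 0 with the file of WT 2 as deposited, and 1 to 13 without single arrays. Within the deposited values of fat, 1 became 0 with the mean of all probes and 0 to 4 without single columns. For skin minus liver, 30 became 5 with normexp, 64 with quantiles, 66 with median scaling, 3 with no filter, 62 with the value table, 4 with slide as a fixed block and 0 to 100 without single arrays. For skin minus fat, 68 became 43 with no filter, 104 with the value table, 0 with slide as a fixed block and 0 to 149 without single arrays. WT skin minus fat gave 14883 with no filter. Without single arrays the WT contrasts gave 8753 to 9272 (skin and liver), 8079 to 9043 (skin and fat) and 8812 to 9307 (liver and fat).

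For same-numbered replicates r was -0.07, -0.11 and -0.04 in skin, -0.09, -0.06 and -0.23 in liver, and 0.19, 0.04 and -0.02 in fat. Pairs with different numbers gave -0.26 to 0.24. The numbers thus showed no sign of a pairing, which such values cannot exclude. With the replicate number as a block 0 genes were called in skin, 0 in liver, 0 in fat and 0 in the fat value table, and 0 members were called with or without it. No such fit was made for the contrasts between WT tissues.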
